A study of Mus musculus with 16 samples.

Results

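The genes described here are the mouse conjugation and hydrolysis enzyme genes of 5 families: the UDP-glucuronosyltransferases (Ugt), glutathione S-transferases (Gst), sulfotransferases (Sult), carboxylesterases (Ces) and aldehyde dehydrogenases (Aldh). They were chosen by symbol from the protein-coding gene models of the mm9 assembly, without use of any measured value. The rule gave 101 gene models. Of these, 1 (Aldh7a1, on chromosome 18) was not analysed here, which left 100 of 21833 protein-coding models: 22 Gst, 21 Ugt, 21 Ces, 19 Aldh and 17 Sult. The series profiled 6 histone marks by ChIP-seq, which sequences the DNA that an antibody to a modified histone pulls down, in epithelial cells isolated from the jejunum of C57BL/6 mouse neonates at postnatal day 12. The WT group is labelled wild type (F/FUN in the protocol) and the KO group carries a deletion of NCoR1 (DIECUN in the protocol). The labels name neither the Cre driver nor what UN stands for. The labels do not state it, but from general knowledge of the study, whose paper was not used here, the mice may be ones humanized for UGT1, with the human locus on a background in which mouse Ugt1 is disrupted. If so, the mouse Ugt1a genes are not intact in either group. There was 1 ChIP library for each mark and genotype, with 27946003 to 47976125 tags per library and 23925163 to 32444815 once the authors had filtered duplicates. With no replicates, no difference could be set against the spread between animals, and all values describe these libraries only.

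UGTs attach glucuronic acid, SULTs attach sulfate and GSTs attach glutathione to small molecules, which makes these more soluble and easier to excrete. Carboxylesterases cleave esters and amides, and aldehyde dehydrogenases oxidize aldehydes to acids. The intestinal epithelium is the first tissue in which swallowed compounds meet these enzymes, and several of the genes are under the control of nuclear receptors, from which the corepressor NCoR1 recruits histone deacetylases. H3K27ac, H3K9ac and H3K4me3 mark active promoters, H3K27ac and H3K4me1 mark enhancers, and H3K9me3 and H3K27me3 mark silent chromatin.

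Each list deposited by the authors holds the regions in which the library of 1 genotype exceeded the library of the other for the same mark. They are called KO-higher and WT-higher regions here, and the fold is the authors' ratio for each region. A region belonged to the gene whose annotated transcription start was nearest to its summit, within 50 kb. For the regions that lead their families, 300 bases of the mm9 plus strand around the summit show what was pulled down. The first 4 are the KO-higher H3K27ac regions with the highest fold of the Ugt, Sult, Aldh and Ces families, and the fifth is the WT-higher acetylation region with the highest fold. Capitals mark AGGTCA, the half-site that nuclear receptors recognize, which only the Ugt2b1 sequence holds.

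Ugt2b1 (chr5:87388566-87388865, KO-higher H3K27ac): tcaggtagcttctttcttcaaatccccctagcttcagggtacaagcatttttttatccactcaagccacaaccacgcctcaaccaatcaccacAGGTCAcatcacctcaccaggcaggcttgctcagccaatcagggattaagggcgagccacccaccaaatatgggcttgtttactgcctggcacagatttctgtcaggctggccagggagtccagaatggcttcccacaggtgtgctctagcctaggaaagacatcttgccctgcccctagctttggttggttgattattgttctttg
Sult1d1 (chr5:87989193-87989492, KO-higher H3K27ac): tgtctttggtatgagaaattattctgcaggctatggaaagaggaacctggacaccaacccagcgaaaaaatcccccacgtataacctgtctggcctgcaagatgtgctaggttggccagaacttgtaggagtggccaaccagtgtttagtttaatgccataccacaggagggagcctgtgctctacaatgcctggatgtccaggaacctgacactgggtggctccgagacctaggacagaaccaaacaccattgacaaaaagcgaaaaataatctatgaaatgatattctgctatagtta
Aldh18a1 (chr19:40647697-40647996, KO-higher H3K27ac): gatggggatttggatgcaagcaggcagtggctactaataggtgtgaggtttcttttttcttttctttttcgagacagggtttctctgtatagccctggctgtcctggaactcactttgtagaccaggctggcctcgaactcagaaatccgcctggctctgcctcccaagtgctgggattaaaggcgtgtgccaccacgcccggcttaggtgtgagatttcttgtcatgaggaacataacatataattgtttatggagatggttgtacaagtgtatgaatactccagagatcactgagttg
Ces1e (chr8:95750903-95751202, KO-higher H3K27ac): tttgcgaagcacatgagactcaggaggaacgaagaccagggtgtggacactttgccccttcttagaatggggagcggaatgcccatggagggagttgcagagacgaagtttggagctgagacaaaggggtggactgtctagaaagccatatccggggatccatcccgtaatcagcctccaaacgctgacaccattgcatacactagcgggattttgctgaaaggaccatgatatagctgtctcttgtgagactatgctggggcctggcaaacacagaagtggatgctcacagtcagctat
Aldh4a1 (chr4:139171985-139172284, WT-higher H3K27ac): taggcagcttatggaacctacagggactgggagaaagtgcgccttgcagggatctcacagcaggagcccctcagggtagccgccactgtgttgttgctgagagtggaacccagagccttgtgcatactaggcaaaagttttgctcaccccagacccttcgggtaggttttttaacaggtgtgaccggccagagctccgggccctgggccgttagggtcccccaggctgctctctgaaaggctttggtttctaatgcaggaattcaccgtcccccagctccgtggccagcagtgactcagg

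The Ugt2b1 sequence lies between genes, 33161 bp upstream of the start. The Sult1d1, Aldh18a1 and Ces1e sequences lie in introns of their own genes, and the Aldh4a1 sequence lies in an intron of the neighbouring gene Iffo2.

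The enzyme genes had KO-higher acetylation at 20 of 100 genes, beside 12% of all genes, and WT-higher acetylation at 5, beside 12.5%. None of the 100 had both, but the share of all genes with both was not counted, so this is not called a trait of the enzyme genes. KO-higher H3K27ac, with 36 regions, lay at 19 of the 100 genes (95% Wilson interval 12.5 to 27.8%), beside 11.3% of all genes. KO-higher H3K9ac lay at 7 genes (3.43 to 13.7%), beside 3.98%, and 6 genes had both acetyl marks, beside 3.25%: Ugt1a1, Ugt1a9, Ugt1a10, Ugt2a3, Ugt2b35 and Aldh18a1. In the other direction the shares were below those of all genes, with WT-higher H3K27ac at 3 (interval 1.03 to 8.45%, beside 7.39% of all genes), H3K9ac at 4 (1.57 to 9.84%, beside 7.51%), H3K4me3 at 9 (4.81 to 16.2%, beside 15.1%) and H3K4me1 at 3 (1.03 to 8.45%, beside 7.36%). The intervals of these 4 lists and of KO-higher H3K9ac all include the share of all genes. The repressive marks touched few genes. KO-higher H3K9me3 lay at 3 (beside 2.11% of all genes), WT-higher H3K9me3 at 2 (beside 1.05%) and WT-higher H3K27me3 at 2 (beside 0.824%). No enzyme gene had KO-higher H3K4me3, beside 0.298% of all genes, and no KO-higher list was analysed for H3K4me1 and H3K27me3, because those deposited under KO labels repeat the WT-higher regions. In all, 39 of the 100 genes had a region in some list, beside 38.2%, and the intervals cover counting error only. Members of a tandem cluster can share regulatory DNA, and the 100 genes fall into 53 loci.

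**Figure D1:**
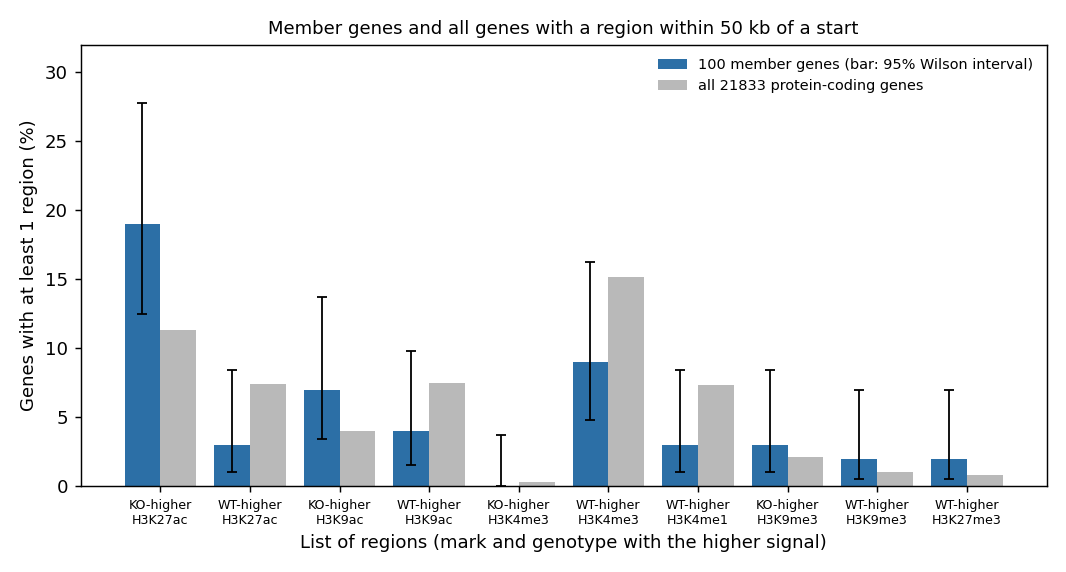
The vertical axis gives the percent of genes with at least 1 region within 50 kb of a start, for each list of regions on the horizontal axis, with the 100 enzyme genes in blue (error bars are 95% Wilson intervals) and all 21833 protein-coding genes in grey. The blue bar is above the grey one for KO-higher H3K27ac (19 against 11.3%) and KO-higher H3K9ac (7 against 3.98%), as for the 3 lists of H3K9me3 and H3K27me3 with 2 or 3 genes each, and it is below the grey one for the WT-higher lists of H3K27ac, H3K9ac, H3K4me3 and H3K4me1.

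Other quantities moved with these counts. KO-higher H3K27ac and H3K9ac each lay at 6 of 6 epithelium markers (Epcam, Cdh1, Vil1, Krt8, Krt18, Krt20), beside 11.3% and 3.98% of all genes. Vil1 differed from the rest in also having KO-higher H3K9me3 (11 regions, fold up to 71.0) and H3K4me3 (8 regions, fold up to 50.9). As silent and active marks were both KO-higher there, its acetylation is not comparable with that of the other markers. Krt20 also had WT-higher H3K4me1 (2.75). Of 4 secretory epithelium markers, Chga had KO-higher H3K27ac and H3K9ac as well as WT-higher H3K27ac (1.63), and Muc2 had WT-higher H3K4me1 (3.66). KO-higher acetylation lay at 0 of 5 immune and 0 of 7 stroma and vessel markers, beside 12% of all genes. The lists hold differences only, so that no marker's level in either group can be given. More epithelial cells in a sample and more acetylation per cell cannot be told apart. KO-higher regions also had lower GC content than WT-higher ones, with a median of 54.9% against 59.5% for H3K27ac. In an alternative, KO-higher regions were limited to GC contents at or above the WT-higher median. KO-higher H3K27ac was then left at 1 enzyme gene (Sult2b1), beside 2.29% of all genes. So small a count cannot show whether the share of the enzyme genes is also higher among GC-rich regions. This alternative was chosen after the data had been seen, and the part of GC content in the counts was not tested.

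The Ugt family held much of the KO-higher acetylation. KO-higher H3K27ac lay at 10 of 21 Ugt genes with 17 of the 36 regions, against 3 of 21 Ces, 3 of 17 Sult, 2 of 19 Aldh and 1 of 22 Gst genes. KO-higher H3K9ac lay at 5 of 21 Ugt and 2 of 19 Aldh genes, beside 3.98% of all genes. Outside the Ugt family the KO-higher H3K27ac count was thus 9 of 79, beside the 11.3% of all genes.

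**Figure D2:**
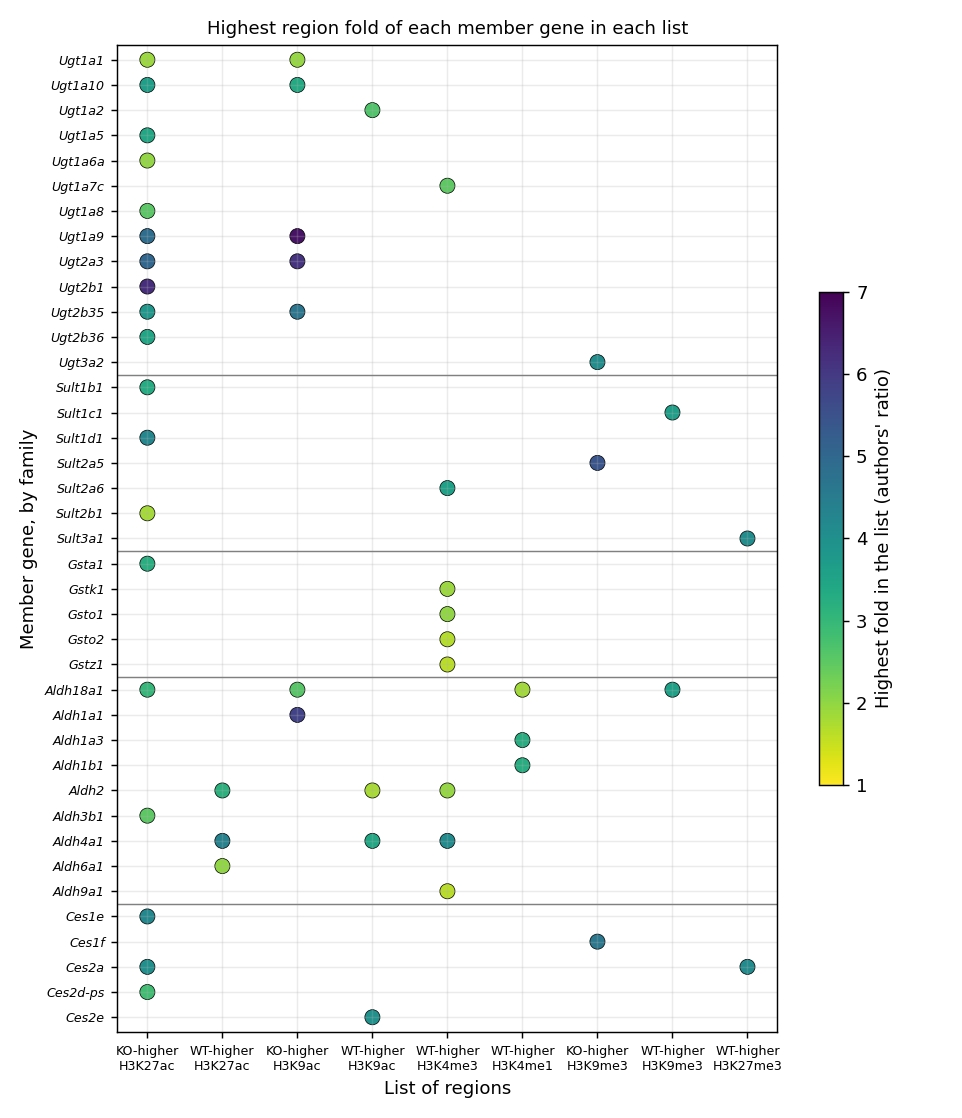
Each row is an enzyme gene with at least 1 region, ordered by family, each column a list of regions, and the colour of a point gives the highest fold of the gene's regions in that list. Of the 19 points in the KO-higher H3K27ac column 10 are Ugt genes, as are 5 of the 7 in the KO-higher H3K9ac column, the Gst rows other than Gsta1 have WT-higher H3K4me3 only, and the Aldh rows spread over both directions.

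The Ugt1a genes lie on chromosome 1 (chr1:89951963-90116577) as alternative first exons joined to shared last exons, so the 9 gene models overlap and a region was assigned by the nearest of their starts. These mouse genes may not be intact in either group, as the opening states. KO-higher H3K27ac lay at 6 of the 9 with 9 regions. At Ugt1a10, the first in the row, 4 regions stretched from 12319 bp upstream (fold 3.63) over 10456 bp (3.02) and 6269 bp upstream (3.11) to the first exon, 106 bp past a start (3.64), and those at 6269 bp and in the exon shared bases with KO-higher H3K9ac regions of fold 3.35 and 3.17. Ugt1a9, whose human counterpart conjugates phenols, had the KO-higher H3K9ac region with the highest fold of the enzyme genes, 6.71, rank 37 of 1883 in its list. It lay in an intron, 2074 bp past the start, and shared 168 bp with a KO-higher H3K27ac region of fold 4.89. At Ugt1a1, which in its human form is the enzyme that conjugates bilirubin, the regions of both acetyl marks lay in the first exon and had low folds of 1.91 and 1.94. Ugt1a5 (3.42), Ugt1a8 (2.54) and Ugt1a6a (1.98) had 1 KO-higher H3K27ac region each. The gene models of Ugt1a6a and Ugt1a6b begin at the same base. The Ugt1a6a region was assigned by a later start of that gene, 5174 bp past the region. Whether Ugt1a6b shares that start was not examined, so the 2 may not be separable. A pair of first exons had WT-higher regions. That of Ugt1a2 was H3K9ac of fold 2.65, opposite in direction to the other listed acetylation of the locus. That of Ugt1a7c was H3K4me3 of fold 2.497, a mark listed as WT-higher at 15.1% of all genes and as KO-higher at 0.298%. Without the Ugt1a genes, KO-higher H3K27ac lay at 13 of 91 enzyme genes beside 11.3% of all others. KO-higher H3K9ac then lay at 4 of 91, beside 3.96%, a share near that of all genes.

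**Figure D3:**
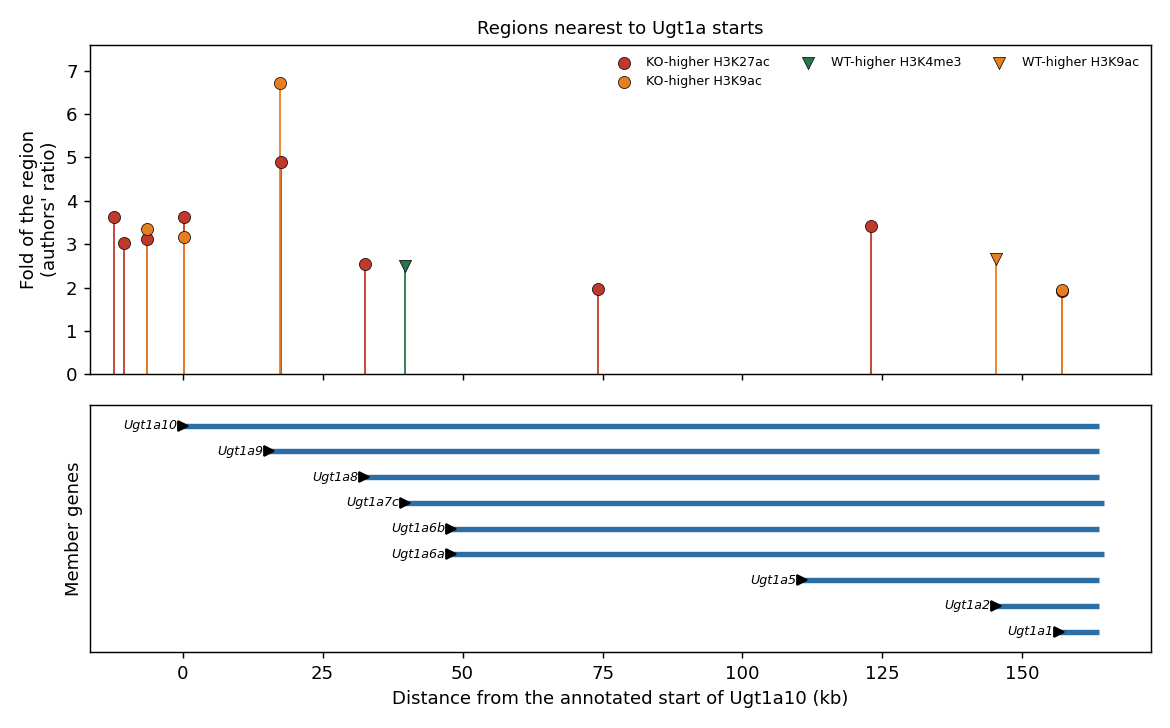
The upper panel gives the fold of each region nearest to a Ugt1a start and the lower panel the 9 overlapping gene models with their starts as arrowheads, against the distance in kb from the start of Ugt1a10. Circles are KO-higher and triangles WT-higher regions, and the colour gives the mark. The highest circles sit just past the start of Ugt1a9, at 6.71 for H3K9ac and 4.89 for H3K27ac, and the triangles at Ugt1a7c and Ugt1a2 are the only WT-higher regions.

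The Ugt2 genes form a second row, on chromosome 5, that continues into 3 Sult1 genes. KO-higher acetylation was the only kind of difference listed there. UGT2 enzymes act on steroids, bile acids and many drugs. Ugt2b1 had a single KO-higher H3K27ac region, of fold 6.22, the highest of the 36 and rank 75 of 7111 in the list. Ugt2a3, whose human form conjugates bile acids, had 4 KO-higher H3K27ac regions: in its first exon, 92 bp past the start (2.41), and 3357 (1.81), 7855 (3.11) and 38492 bp upstream (5.04). The last of these shared 134 bp with a KO-higher H3K9ac region of fold 6.12, and a second H3K9ac region (4.55) lay 41675 bp upstream. Folds at Ugt2a3 were thus highest at the distant regions and not at the start. Ugt2b35 had KO-higher H3K27ac of fold 2.15 and 3.82 and H3K9ac of fold 4.67, all past its end, 26306 to 28428 bp from its start. Ugt2b36 had 1 H3K27ac region (3.44) 2878 bp upstream. Ugt2a1, Ugt2b5, Ugt2b34, Ugt2b37 and Ugt2b38 had no region in any list, nor had Ugt3a1 and Ugt8a. Many Ugt2b genes are close copies of each other, where short reads may not map uniquely. The remaining family member with a region, Ugt3a2, had KO-higher H3K9me3 (4.07) 6661 bp upstream.

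**Figure D4:**
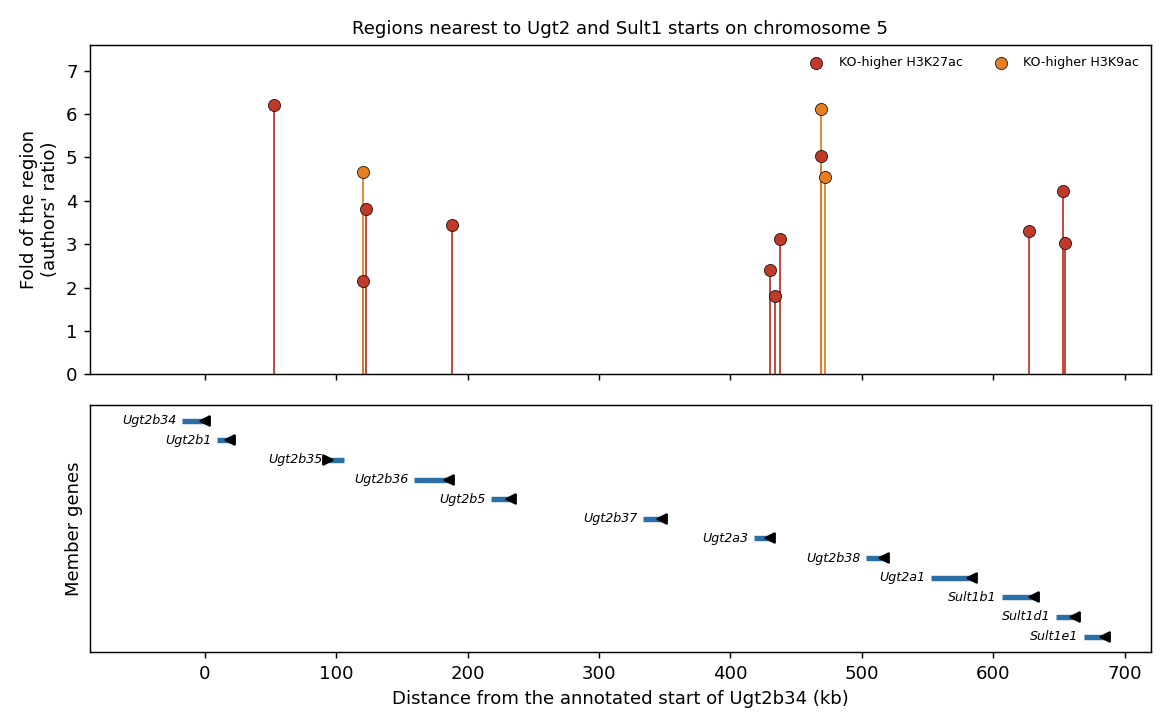
The upper panel gives the fold of each region nearest to a Ugt2 or Sult1 start on chromosome 5 and the lower panel the 12 genes with their starts as arrowheads, against the distance in kb from the start of Ugt2b34. All regions are KO-higher, with the highest folds at the distant regions of Ugt2b1 (6.22) and Ugt2a3 (6.12 for H3K9ac).

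Among the sulfotransferases, KO-higher H3K27ac lay at Sult1d1, which sulfates catecholamines, with 2 intronic regions (4.23 and 3.02), at Sult1b1, which acts on phenols and thyroid hormones, 969 bp past the start (3.31), and at Sult2b1, which sulfates cholesterol, 11602 bp upstream (1.81). Of these 3 genes, Sult1b1 and Sult1d1 belong to the chromosome 5 row, in which the estrogen sulfotransferase Sult1e1 had no region. The Sult2a genes, which sulfate bile acids and steroids, had no listed difference in acetylation. Sult2a5 had KO-higher H3K9me3 in an intron (5.41, the highest H3K9me3 fold of the enzyme genes) and Sult2a6 WT-higher H3K4me3 45528 bp upstream (3.56). Sult1c1 had WT-higher H3K9me3 (3.63) and Sult3a1 WT-higher H3K27me3 (4.08), both in introns. The other 10 Sult genes had no region.

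The glutathione S-transferases had few differences. Gsta1, of the alpha class that detoxifies lipid peroxidation products, was the only Gst gene with KO-higher acetylation, with H3K27ac 15669 bp (3.24) and 1164 bp upstream (2.18). WT-higher H3K4me3 lay at 4 of 22 Gst genes (18.2%, beside 15.1% of all genes), each time at the start and with a low fold. These were Gsto1 (1.99) and Gsto2 (1.68), omega-class enzymes that reduce dehydroascorbate, Gstk1 of the kappa class (1.89) and Gstz1, the maleylacetoacetate isomerase of tyrosine breakdown (1.62). The region of Gstz1 also lay over an exon of Pomt2, and those of the Gsto genes in introns of Wdr96. None of the 8 Gstm, 4 Gstt and 2 Gstp genes (mu, theta and pi classes) had a region in any list, beside the 38.2% of all genes that had. The 4 Gstt genes, the 2 Gstp genes and 7 of the 8 Gstm genes each form a single row, so these are few loci. Short reads may not map uniquely in such rows, so a difference there may have been missed.

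The aldehyde dehydrogenases differed among themselves in direction. KO-higher acetylation lay at Aldh18a1, Aldh1a1 and Aldh3b1, and WT-higher acetylation at Aldh2, Aldh4a1 and Aldh6a1. Aldh18a1, which makes the proline precursor pyrroline-5-carboxylate from glutamate, had 7 intronic KO-higher H3K27ac regions (1.72 to 3.004) spread from 6688 to 18385 bp past its start and 1 KO-higher H3K9ac region (2.57). The outermost of them shared all 163 bp of a WT-higher H3K9me3 region (3.58), and another shared 250 bp with a WT-higher H3K4me1 region (1.84), so at these places acetylation was higher in KO where methylation was higher in WT. Aldh4a1, which oxidizes the same intermediate in proline breakdown, had the opposite direction: WT-higher H3K27ac (4.37), H3K4me3 (4.13) and H3K9ac (3.41) shared bases 6573 to 6648 bp upstream of its start, and a second WT-higher H3K27ac region (3.34) lay 23538 bp upstream. Both places are in introns of Iffo2 and were given to Aldh4a1 because its start is nearest. Aldh2, the mitochondrial enzyme that clears acetaldehyde, had WT-higher H3K4me3 (1.94) and H3K9ac (1.78) sharing 164 bp just inside the gene and WT-higher H3K27ac (3.16) 4316 bp upstream. Aldh6a1, of valine breakdown, had WT-higher H3K27ac 141 bp past its start (1.98), and Aldh9a1, of carnitine synthesis, WT-higher H3K4me3 (1.62). Aldh1a1, which makes retinoic acid from retinaldehyde, had KO-higher H3K9ac of fold 5.82 over its first exon, 33 bp past the start. WT-higher H3K4me1 lay at Aldh1a3 (3.26 and 2.197), another retinaldehyde dehydrogenase, and at Aldh1b1 (3.26). Aldh3b1 had 1 KO-higher H3K27ac region (2.52). The other 10 Aldh genes analysed had no region.

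The carboxylesterases lie in rows on chromosome 8. KO-higher H3K27ac lay at Ces1e (4.19, intron), at Ces2a (4.02), 10953 bp past its start and beyond its end, and at Ces2d-ps with 3 regions (2.51 to 2.84) 18881 to 22219 bp past the start, also beyond the gene. Ces2a also had WT-higher H3K27me3 in an exon (4.12) and 26461 bp past the start (2.65). Ces2e had WT-higher H3K9ac (3.996) 17079 bp upstream and Ces1f KO-higher H3K9me3 (4.62) within an intron of Ces1g. No Ces gene had a region of KO-higher H3K9ac (3.98% of all genes), WT-higher H3K4me1 (7.36%), or WT-higher (15.1%) or KO-higher H3K4me3 (0.298%). The remaining 16 gene models had no region.

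KO-higher acetylation lay mostly away from starts, at the enzyme genes as over all genes. Of 45 regions of enzyme genes, 8 (17.8%, 95% Wilson interval 9.29 to 31.3) had a summit within 1 kb of a start. The share was 10.9% for such regions of all genes. Of 8 WT-higher acetylation regions, 3 lay there (37.5%, 13.7 to 69.4), beside 49.1%. Of 9 WT-higher H3K4me3 regions, 7 did (77.8%), beside 74.0%. The acetylation counts pool H3K27ac and H3K9ac, so a site with both marks enters for each, as at Ugt1a1 and Ugt1a10. Their intervals treat such regions as independent. By mark, 5 of 36 KO-higher H3K27ac regions lay within 1 kb (13.9%, 6.08 to 28.7), beside 9.27%. For KO-higher H3K9ac it was 3 of 9 (33.3%, 12.1 to 64.6), beside 16.7%. The folds of the KO-higher H3K9ac regions of enzyme genes had a median of 4.55, beside 2.91 in the whole list, and those of H3K27ac 2.92, beside 2.52. The signal at their summits (pileup) was lower, with a median of 27.1 beside 53.3 for H3K9ac and 59 beside 71 for H3K27ac. Whether the higher folds go with the weaker signal was not tested. Of the 9 KO-higher H3K9ac regions, 6 (66.7%) shared bases with KO-higher H3K27ac, beside 39.6% over all genes. At the limit of 50 kb, the regions of Sult2a6 at 45528 bp and of Ugt2a3 at 41675 bp were just inside. Just outside were a KO-higher H3K27ac region (5.24) 52129 bp past the start of Aldh1a1 and a WT-higher H3K4me3 region (3.22) 56865 bp past that of Aldh1a2.

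**Figure D5:**
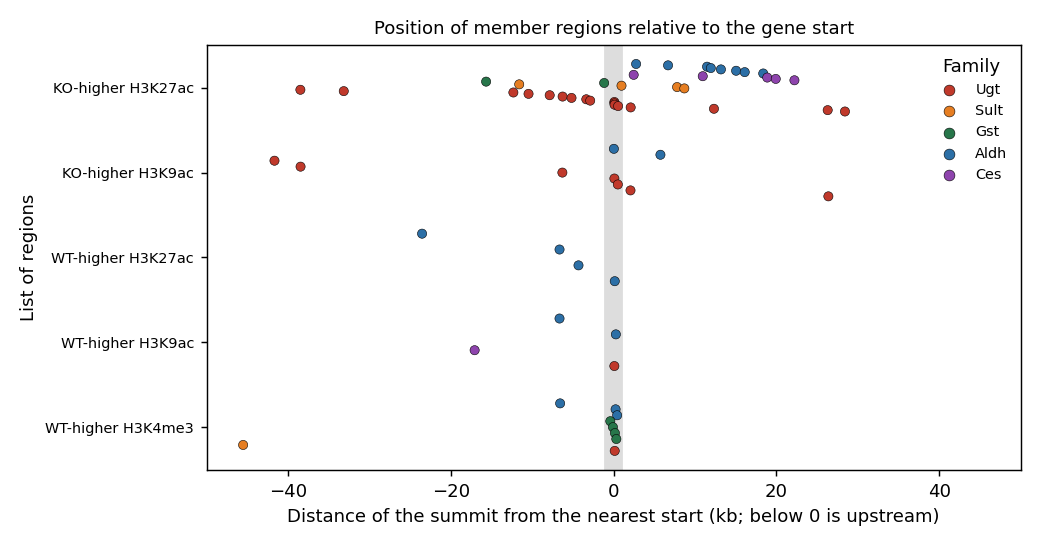
The horizontal axis gives the distance of each region's summit from the nearest start in kb, the rows are 5 lists of active marks, the colour is the gene family, the grey band is the 1 kb on either side of a start, and the height of a point within its row has no meaning. Most KO-higher acetylation points lie outside the band, and 7 of 9 WT-higher H3K4me3 points lie inside it.

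The 300 bases around each summit were searched on both strands for motifs of nuclear receptors and of the antioxidant response. No enzyme gene region held a direct repeat of AGGTCA with 1 or with 4 bases between the copies, or an everted repeat with 6 bases between. These letters were also rare in all KO-higher acetylation regions, at 0.0891%, 0.0223% and 0%. AGGTCA alone was found in 9 of 45 KO-higher acetylation regions (20%), beside 20.3% of all such regions. TGACNNNGC, the core of the antioxidant element, was found in 7 (15.6%), beside 12.6%. These counts also pool both acetyl marks, so a shared site enters for each, as at Ugt1a9 and Ugt2b35 for AGGTCA. By mark, AGGTCA was in 6 of 36 H3K27ac regions (16.7%, beside 20.4%) and 3 of 9 H3K9ac regions (33.3%, beside 19.6%). The HNF4 motif CAAAGTCCA, for a receptor that maintains enterocyte genes, was found on the minus strand in the first exon of Ugt1a10, within the 300 bases of both its KO-higher H3K27ac and its H3K9ac region, just ahead of the regions themselves. The same letters were found around 0.296% and 0.478% of all regions of those lists. The site is shown with 10 bases on either side of the plus strand, with capitals for the motif.

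Ugt1a10 first exon (chr1:89952030-89952058): tggattgctcTGGACTTTGaatttaccat

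Genes that supply cofactors or carry out related reactions were counted in the same way. Of 33 such genes, 11 had KO-higher acetylation (Adh4, Adh5, Adh7, Akr1b7, Akr1b8, Bche, Cbr1, Ephx2, Gclm, Pon2 and Ugp2), beside the 12% of all genes. KO-higher H3K27ac lay at 10 and H3K9ac at 5. Akr1b7, an aldose reductase-like enzyme, had the highest folds, 8.45 for H3K27ac just upstream of its start and 8.23 for H3K9ac. Its neighbour Akr1b8 had H3K27ac of fold 5.15, and Gclm, the modifier subunit of the enzyme that starts glutathione synthesis, had 5.05. In the WT direction high folds were those of WT-higher H3K4me1 at the lactonase gene Pon2 (4.93), WT-higher H3K27me3 at Gclc (4.60), the catalytic partner of Gclm, and WT-higher H3K4me1 at Gclm itself (4.38). Of the genes for the UGT cofactor, Ugp2 had KO-higher H3K9ac (1.45), Ugdh WT-higher H3K4me3 (1.94 and 1.66) and Slc35d1 WT-higher H3K4me1 (4.01).

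RNA values exist for few of these genes. The authors' deposited table gives a log2 fold change of RNA and its adjusted p-value (FDR) for 1549 genes. These are only genes that the authors placed nearest to a WT-higher H3K4me1 region, so they do not stand for all genes. Of these, the authors' deposited table has 77 genes (4.97%) higher and 149 (9.62%) lower in KO at an FDR under 0.05. It names 5 enzyme genes and has values for 4, of which 0 passed in either direction. The authors' deposited table gives a log2 fold change of 0.21 for Aldh1b1 (FDR 0.0789), -0.20 for Aldh1a3 (FDR 0.201), -0.25 for Sult1c2 (FDR 0.977) and 0.00 for Ces5a (FDR 1). None of these 4 had a listed difference in acetylation within 50 kb, and none of the genes with KO-higher acetylation had an RNA value.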

How the data were processed

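ChIP was done with antibodies to 6 marks in WT and KO cells, 12 libraries in all, and 4 input libraries had no files used here. Sequencing was single end with 50 cycles, and tags were mapped to the mm9 genome, as the labels' protocols state. Tools given in the submitters' processing notes are MACS2 2.1.1, HOMER 3.12, Bowtie2 2.2.9 and CASAVA 1.8.2. The headers of the files give another caller version, MACS 2.0.10.20130419, and tags of 75 bp, and these differences could not be settled.

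Per the file headers, the authors called each region in 1 genotype's library with the other genotype's library as its control, at a q cutoff of 0.05 and 1 tag kept per position. The deposited values are the pileup signal at the summit, the fold (a ratio to the other genotype's local background) and -log10 of the p-value and q-value, per the file headers. The authors' table adds, for RNA, a log2 fold change and an FDR, which is an adjusted p-value. The direction was taken as KO over WT because HOMER names the baseline first. In that table, 64 of 76 genes with a log2 fold change above 0 and an FDR under 0.05 had KO-higher H3K27ac, and 10 of 140 below 0 did. A further 12 per-library RNA columns were not used, since their libraries are no samples of this series.

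Regions of the 10 lists (23511 regions, of which 18683 lay within 50 kb of a protein-coding start and 74 at the enzyme genes) were joined to GENCODE models of mm9 by nearest start. Chromosomes 18 and Y were not analysed here. Sequences were read from the mm9 genome. A sequence of 300 bases that met an annotated UTR was cut to the motif and 10 bases on either side. Python 3.11.15, pandas 2.3.3, numpy 2.4.6, scipy 1.17.1, pysam 0.24.0 and matplotlib 3.10.9 were used. The join was tested on simulated data, with 2000 regions planted within 2 kb of starts that lay apart from other starts. Of these, 1997 were given the right gene. Such regions are easy to assign, so the assignment of distant regions or among overlapping gene models was not tested. No test across genes was made, as there was 1 library per mark and genotype.

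The rule for the enzyme genes uses symbols only, but the genes and lists were chosen with earlier results of these data known. The rule named genes with regions of 2 or more marks in 1 direction, the highest fold of each family in each list, and genes under an FDR of 0.05. This gave 25 genes. The others with a region are named to account for every gene and were chosen after their values were seen. From the list of related genes, up to 3 per direction with the highest folds were named, and the further names were chosen after their values were seen. A gene of that list and a sequence that the rules would give are not reported here.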

Additional observations from a re-analysis of the deposited data

Results flagged for a closer look

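The lists also hold 89 regions on a sequence named UGT1A that is not a mouse chromosome and was left out of all counts of enzyme genes. Of the 10 lists, 5 held more than 3 regions there, a limit used for flagging and not a test. WT-higher H3K27me3 had 35 of its 395 regions there (8.86%, 95% Wilson interval 6.44 to 12.1). WT-higher H3K4me1 had 17, KO-higher H3K27ac 12, WT-higher H3K9me3 10 and WT-higher H3K4me3 9. Fewer lay there for WT-higher H3K27ac (3), WT-higher H3K9ac (2) and KO-higher H3K9ac (1). No KO-higher H3K9me3 or H3K4me3 region lay there. None of these regions was assigned to a gene.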

How the results depend on the processing

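Of 89 alternatives, 56 left a count within 1.5 times or a share within its interval, and 33 did not. Some of the 56 could not have moved. The RNA counts and KO-higher H3K4me3 were 0 to begin with, and a stricter limit on 0 leaves 0. With 1 library per mark and genotype, leaving out a library was not possible. No paired analysis was possible because each group holds 1 library per mark and the lists carry no replicate numbers. The main counts are 19 genes with KO-higher and 3 with WT-higher H3K27ac, 7 and 4 for H3K9ac, 9 with WT-higher H3K4me3, 3 with WT-higher H3K4me1, 3 and 2 for H3K9me3, and 2 with WT-higher H3K27me3. Fewer regions, by construction, were left with a -log10 q of at least 5: WT-higher H3K4me1 lay at 1 gene (3.29% of all genes), H3K4me3 at 5 (5.67%), H3K9ac at 0 (2.34%), H3K9me3 at 1 (0.389%) and H3K27me3 at 0 (0.115%), KO-higher H3K9ac at 4 (2.73%) and H3K9me3 at 1 (0.591%), and both KO-higher acetyl marks at 3 (2.09%), with 0% of 2 WT-higher acetylation regions at promoters. With a fold of at least 4, KO-higher H3K27ac lay at 6 genes (2.09% of all genes), KO-higher H3K9ac at 4 (1.11%), both at 2 (0.380%), WT-higher H3K4me1 at 0 (1.52%), H3K4me3 at 1 (0.944%), H3K9ac at 0 (1.57%), H3K27ac at 1 (1.01%) and H3K9me3 at 0 (0.453%). Of these regions, 9.09% of 11 KO-higher and 0% of 1 WT-higher acetylation regions lay at promoters. Within 10 kb, WT-higher H3K9me3 lay at 1 gene (0.371%) and KO-higher H3K9me3 at 1 (0.728%). With starts of all kinds of gene, WT-higher H3K9me3 lay at 1 (0.838%). By gene body overlap, where 1 region counts for every overlapping Ugt1a gene, WT-higher H3K9ac lay at 10 (6.13%), KO-higher H3K9ac at 11 (3.15%), both KO-higher acetyl marks at 10 (2.48%) and WT-higher H3K27ac at 1 (5.89%). By the authors' nearest gene at any distance, WT-higher H3K4me1 lay at 5 (7.69%).

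Added after the data had been seen were a limit on GC content, which left KO-higher H3K27ac at 1 gene (2.29%), KO-higher H3K9ac at 0 (0.371%), WT-higher H3K27ac at 0 (1.12%), H3K9ac at 1 (0.687%) and H3K4me3 at 0 (0.944%), and the removal of the 9 Ugt1a genes, which left KO-higher H3K9ac at 4 (3.96%). The direction of every listed difference is fixed by its list. Depth limits the lists to differences past the authors' cutoff, so a gene without a region was not shown to be alike in both groups.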
